A study of Homo sapiens with 6 samples.

Results

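PRAM1 and 8 genes of the kinase and adaptor pathway around it were described in THP-1 cells, a monocytic line from a human leukaemia. The genes are PRAM1, FYB1, SKAP2, LCP2, LAT2, HCLS1, SYK, LYN and FGR, 9 of 78650 genes in the count table, found by their Ensembl identifiers. The list was selected on gene symbols with the counts and TPM of the PTX4-OE against EV comparison already known. All cells were THP-1 grown in the same medium and stably transduced. The EV group carried an empty vector and the PTX4-OE group a construct that overexpresses PTX4, the gene of the soluble recognition protein pentraxin 4. Each group had 3 biological replicates numbered 1 to 3, and all 6 libraries have the same batch label. The sources used here do not give the promoter of the construct or whether the cells were a clone or a pool. The single comparison, PTX4-OE against EV, asks which transcripts PTX4 overexpression changes.

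Myeloid cells use a tyrosine kinase relay to turn receptor binding at the surface into adhesion, phagocytosis and the oxidative burst. Src family kinases such as LYN and FGR phosphorylate the tails of receptors and their ITAM subunits, SYK docks there through its SH2 domains, and SYK then phosphorylates adaptor proteins that have no enzyme activity. LAT2 (also NTAL) holds the complex at the membrane, LCP2 (SLP-76) gathers effectors in the cytosol, and FYB1 (ADAP), PRAM1 and SKAP2 link LCP2 and the Src kinases to integrins and actin. PRAM1 was named as a target of the retinoic acid receptor fusion of promyelocytic leukaemia, is expressed in the granulocytic and monocytic lineage, and is related in sequence to FYB1.

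The libraries held 29670641 to 37718207 expected counts. PTX4 counts were 0, 3 and 4 with the empty vector and 24633, 14398 and 15782 with the construct, so the construct was seen in every library labelled with it. Of 12 genes listed for monocytic identity all were detected, with a summed level of 2446 to 2989 TPM (transcript abundance scaled for gene length and library size) in EV and 2358 to 2904 TPM in PTX4-OE. AZU1 and CTSG, granule protein genes, carried most of that sum, at means of 1125 and 799.8 TPM. CD14 was low, at 0.84 to 1.83 TPM, and so was ITGAM, at 2.34 to 3.31 TPM. The T cell genes CD3D, CD3E, CD3G and CD2 and the B cell gene MS4A1 were listed at 0 in every library. In each of the lists of 6 T cell and 6 B cell genes, 5 were below 1 TPM throughout. The others were TRAC, at 1.73 to 3.27 TPM, and CD79B, at 2.09 to 3.93 TPM. Of 5 NK cell genes 2 were below 1 TPM throughout. NCAM1 of that list stood at 38.98 to 51.35 TPM and NKG7 at 18.93 to 27.05 TPM. The mitochondrial share of counts was 2.79% for replicate 1 of PTX4-OE and 4.75% to 5.91% elsewhere.

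Among the 9 genes LAT2 and HCLS1 had the most transcripts, and PRAM1, FYB1 and FGR were scarce. LAT2, the membrane adaptor (ENSG00000086730.17, chromosome 7, 74199652 to 74229834, plus strand, GRCh38), stood at 446.58, 447.04 and 448.59 TPM with the empty vector, in the order of replicate numbers 1 to 3, and at 448.79, 444.07 and 455.15 TPM with PTX4. Values below keep that order. It ranked 222 to 293 among all genes, and the groups overlapped. HCLS1 (ENSG00000180353.11, chromosome 3, 121631399 to 121660927), the haematopoietic relative of cortactin that binds F-actin and is a substrate of SYK and LYN, ranged from 154.55 to 169.10 TPM.

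LCP2 (ENSG00000043462.13, chromosome 5, 170246233 to 170297815) followed at 34.97, 32.41 and 38.04 TPM in EV and 32.60, 32.45 and 34.69 TPM in PTX4-OE. LYN (ENSG00000254087.8, chromosome 8, 55879835 to 56014169) was at 31.52, 29.78 and 35.03 TPM in EV and 34.88, 29.32 and 35.13 TPM in PTX4-OE. The ranges of LCP2 and LYN over the 6 libraries overlapped, so their order is not fixed by these data. SKAP2 (ENSG00000005020.13, chromosome 7, 26667068 to 26995239), which binds both PRAM1 and FYB1, ranged from 24.46 to 28.81 TPM. SYK (ENSG00000165025.15, chromosome 9, 90801787 to 90898549) ranged from 20.76 to 22.77 TPM. Each of these last 2 was below its upper neighbour in all libraries, with no overlap of the ranges.

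PRAM1 (ENSG00000133246.12, chromosome 19, 8490056 to 8502640, minus strand) was at 2.12 to 8.55 TPM and FYB1 (ENSG00000082074.19, chromosome 5, 39105252 to 39274528) at 0.79 to 1.20 TPM. Over the group means LAT2 was 83.3 times PRAM1 in EV and 179 times PRAM1 in PTX4-OE. FGR (ENSG00000000938.13, chromosome 1, 27612064 to 27635185), a Src kinase of mature neutrophils and monocytes, had only 3 to 9 counts per library, or 0.06 to 0.18 TPM. It did not pass the filter on low counts, so 8 of the 9 genes were tested. No gene annotated over a member's locus had more than 3 counts in any library.

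**Figure D1:**
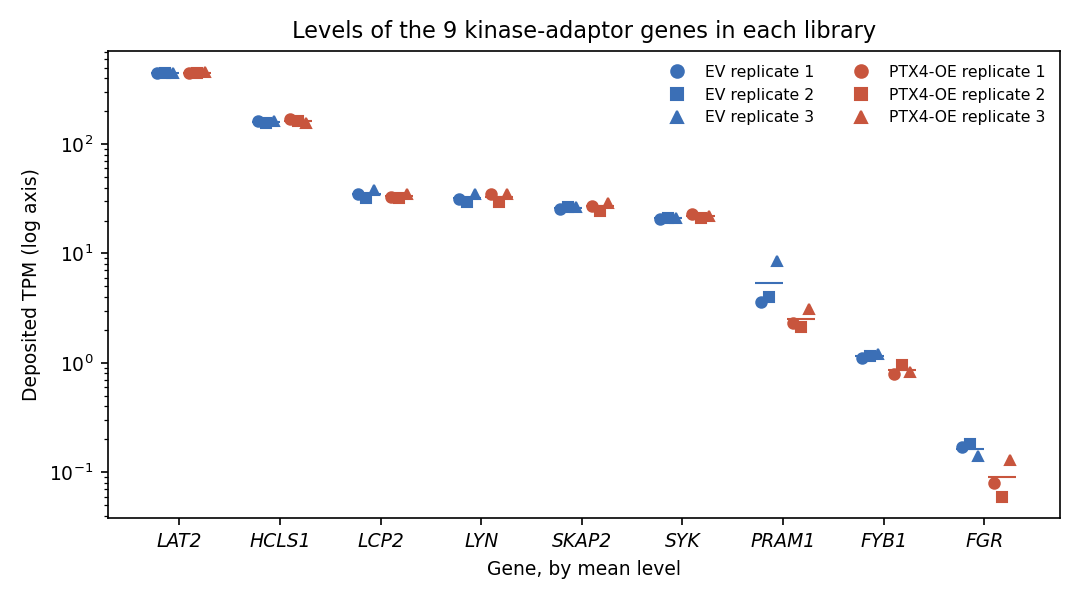
Deposited TPM (log axis) of the 9 genes, ordered by mean level, with 1 point for each library, marker shapes for the replicate number and lines for the group means (n = 3 each). LAT2 and HCLS1 lie above 154 TPM in every library, FGR lies at or below 0.18 TPM, and PRAM1 is the gene whose points spread furthest, from 2.12 to 8.55 TPM.

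SYK, LCP2, SKAP2, HCLS1 and LAT2 each made up most transcripts of their family. SYK held 99.2% to 100.0% of the summed TPM of SYK and ZAP70, its T cell relative. LCP2 held 98.7% to 99.5% of the SLP-76 family, with BLNK, the B cell form, at 0.497% to 1.28%. SKAP2 held 99.9% to 100.0% of the SKAP pair, and SKAP1, the T cell form, was listed at 0 in 5 libraries. HCLS1 held 95.9% to 96.8% against CTTN. LAT, the T cell adaptor, was at 28.66 to 39.25 TPM, although CD3 genes were listed at 0, and held 6.02% to 8.05% of the LAT and LAT2 sum. Within the FYB family PRAM1 held 76.3%, 77.6% and 87.7% of transcripts with the empty vector and 74.7%, 69.1% and 79.1% with PTX4, FYB1 held the rest, and FYB2 was listed at 0 throughout.

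Of the Src family kinases, LYN was scarcer than FYN in every library. FYN, a Src kinase found in most tissues, stood at 56.02, 62.93 and 106.39 TPM with the empty vector and at 63.44, 74.66 and 102.74 TPM with PTX4. It was highest in replicate number 3 of both groups. LYN in TPM was also highest there, within a narrower range of 29.32 to 35.13 TPM. LCK and BLK, the lymphoid forms, were listed at 0 in every library.

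To show what lies before the starts of genes at such different levels, the RefSeq promoter table (GRCh38.p14) was searched over the 250 bases before each start. It matched 6 of the 9 genes with 10 starts, and PRAM1, LAT2 and LYN had no entry. The core of the site of PU.1, the lineage factor of monocytes (its gene SPI1 was at 252.51 to 287.31 TPM), was written GAGGAA and searched on both strands. It was present before 5 of the 10 starts, in 4 genes, and before 23.6% of all 35116 starts in the table. The match nearest a start of each gene is shown in a window of 30 bases on the gene's strand, with the core in capitals:
FGR, chr1:27635177-27635206, minus strand, core on the opposite strand, 9 bases before the start: gtccgaggcggcTTCCTCctccctgcccag
LCP2, chr5:170297779-170297808, minus strand, 19 bases before the start: tatttgttcgcaGAGGAAgccgttgctttc
SYK, chr9:90801775-90801804, plus strand, 32 bases before the start: gttgcccaaaatGAGGAAgagccgcgggcc
SKAP2, chr7:26857794-26857823, minus strand, 88 bases before the start: tccaaccagccaGAGGAAcacttgattcgc
The starts shown for LCP2, SYK and SKAP2 lie inside the annotated genes, and their windows of 250 bases overlap an annotated exon. The scarcest gene, FGR, holds the same letters as LCP2, SYK and SKAP2 before the start shown, and had no match before its other start. Of the SYK starts 1 had no match either. Which starts these cells use was not tested. HCLS1 and FYB1 had no match in their windows. The AP-1 motif TGANTCA was found before 1 of the 10 starts, that of HCLS1, and before 6.57% of all starts. The CEBP motif TTGCNNAA was found before 2 of the 10 starts and 9.05% of all. For the RUNX motif TGTGGT it was 2 of the 10 and 11.0% of all. A match describes letters and not binding.

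Between the groups, PRAM1 and FYB1 were lower in PTX4-OE and the other 6 tested genes lay close to equality. The list was selected on these values, so they are a description with no test. PRAM1 stood at 5.47, 6.13 and 12.4 CPM (counts scaled to library size with TMM factors) with the empty vector and at 3.51, 3.18 and 4.35 CPM with PTX4. The groups did not overlap, and EV replicate 3 was the high value. The means were 7.99 ± 3.81 CPM in EV and 3.68 ± 0.606 CPM in PTX4-OE (SD, n = 3 each). The fitted log2 difference, PTX4-OE minus EV, was -1.12 (SE 0.34) without pairs and -1.07 (SE 0.15) with libraries of the same replicate number as pairs, or 0.477 of the EV level. The 3 pairs gave -0.64, -0.95 and -1.51 (SD 0.44). The paired SE of 0.15 rests on variances moderated across genes and does not measure that spread alone. With DESeq2 and pairs the difference was -1.05 (SE 0.22). Without EV replicate 3 the difference of PRAM1 was -0.65 (SE 0.22) with no pairs, and dropping both libraries of number 3 gave -0.80 (SE 0.19) in the paired fit. With pairs, 2 of the 12 monocytic identity genes were called lower in PTX4-OE, and the rest of that list was not called either way. Over all tested genes 0.238% were called lower with pairs. Without pairs none of the 12 was called lower. MPO, the myeloperoxidase gene, was at -0.54 (SE 0.080, edgeR adjusted p = 0.0080) and CSF1R, the macrophage growth factor receptor gene, at -0.30 (SE 0.056, edgeR adjusted p = 0.0385). Their part in the PRAM1 difference was not tested. In bulk RNA, fewer cells that express a gene and less RNA per cell cannot be told apart.

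FYB1, the closest relative of PRAM1 in the list, was also lower in PTX4-OE, at a lower level. Its counts were 127, 123 and 140 in EV and 101, 101 and 106 in PTX4-OE, or 4.11 ± 0.0887 against 2.92 ± 0.281 CPM (SD, n = 3 each). All EV libraries were above all PTX4-OE libraries. The log2 difference of FYB1 was -0.50 (SE 0.15) with pairs, with -0.52, -0.37 and -0.61 in the 3 pairs. Without pairs it was between -0.45 and -0.58 when any 1 library was left out, so no single library set it. With pairs it was between -0.45 and -0.56 when a pair was left out. On log2(TPM + 1), where the pseudocount is about as large as the level, it was -0.22. FGR had 9, 9 and 8 counts in EV and 5, 3 and 8 in PTX4-OE, or 26 and 16 summed. Replicate 3 of each group had 8 counts, so its CPM groups did not overlap only through the scaling for library size. The ratio scaled for library size was 0.551, from so few counts that it is given only as a description.

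The partners and kinases had differences near 0. With pairs the log2 difference was 0.0042 (SE 0.056) for SKAP2, -0.028 (SE 0.050) for LCP2 and -0.030 (SE 0.051) for LAT2. For HCLS1 it was -0.013 (SE 0.050), for SYK 0.023 (SE 0.051) and for LYN 0.0049 (SE 0.051). The single pairs of these 6 genes ran from -0.15 to 0.12, and their groups overlapped. Relative to SKAP2, which binds both proteins, PRAM1 was less abundant in PTX4-OE. There were 7.07, 6.59 and 3.11 SKAP2 transcripts (TPM) for each PRAM1 transcript with the empty vector and 11.7, 11.5 and 9.29 with PTX4.

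**Figure D2:**
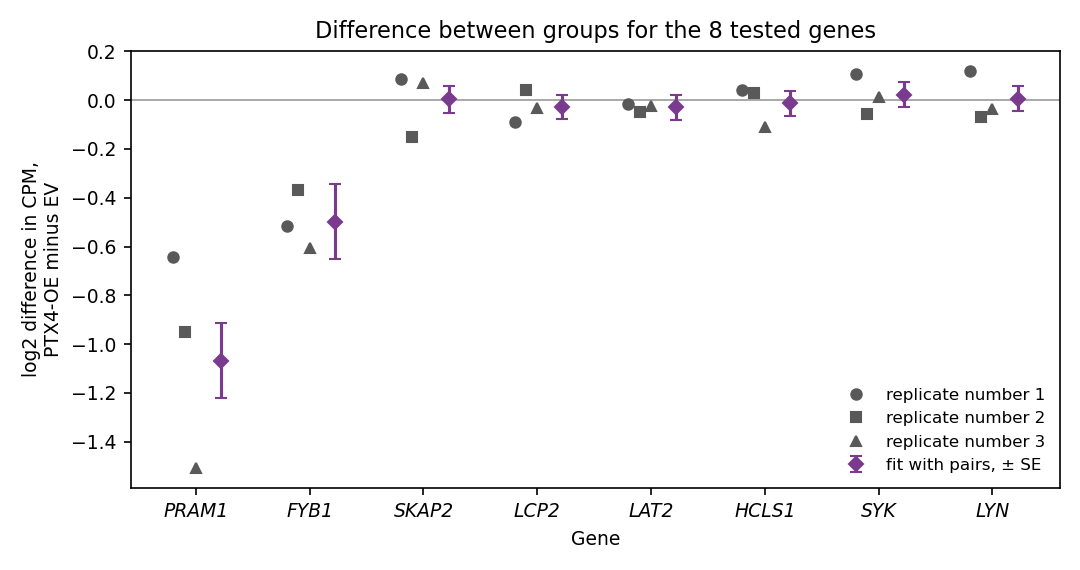
Log2 difference in CPM, PTX4-OE minus EV, for the 8 tested genes, with a grey marker for each replicate number and a diamond with SE for the fit with pairs. PRAM1 (-0.64 to -1.51) and FYB1 (-0.37 to -0.61) lie below 0 in all 3 pairs, and the other genes lie between -0.15 and 0.12.

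In counts of calls, with pairs, 1 of the 8 tested genes (PRAM1) passed the edgeR quasi-likelihood test at a Benjamini-Hochberg adjusted p under 0.05 and was lower, where 0.238% of all 17625 tested genes were called lower and 0.0284% higher. Without pairs 0 of the 8 passed, where 0% of genes were called lower and 0.00567%, which is PTX4 alone, higher. Non-overlapping groups with PTX4-OE lower were seen in PRAM1 and FYB1 and in 2.04% of all tested genes, and PTX4-OE higher in 0 of the 8 and in 2.07% of all. Since the list was selected on this comparison, nothing is read from these counts. The median log2 difference with pairs was -0.021 over the 8 genes and 0.0053 over all tested genes.

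The neighbours of PRAM1 on chromosome 19 were tested in the same fit, and neither passed. HNRNPM, an abundant splicing factor gene on the opposite strand whose end lies 942 bases from that of PRAM1, had a log2 difference of 0.095 (SE 0.057, edgeR adjusted p = 0.680 with pairs). ZNF414, a zinc finger gene 7038 bases away on the other side, had 0.10 (SE 0.078, edgeR adjusted p = 0.771). HNRNPM stood at 191.73 to 275.63 TPM. The sources used here do not say whether the libraries keep strand.

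The wider pathway was taken from 6 lists of 113 other genes, of which 99 were tested. With pairs and without, 0 of the 99 passed the edgeR test over all genes. At an unadjusted p under 0.05 there were 6 higher and 13 lower with pairs, and 2 and 2 without. Of all 17625 tested genes, 769 were higher and 781 lower at that level with pairs, and 42 and 89 without. With pairs both shares were larger in the lists than over all genes, the lower one more so. The lists were chosen with earlier results of these data known, so nothing is read from this. With pairs, DESeq2 called ITGB2 lower, limma-voom called ITGB2 lower and CD247 higher, and without pairs both called 0. The median log2 difference with pairs was -2e-04 over the 99 genes, and 85 of them, or 85.9%, lay within 0.2 of 0, against 78.6% of all tested genes.

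Among the Src family kinases and their regulators all 13 tested genes lay within 0.2 of 0. PTPN22, a phosphatase that opposes these kinases, was at -0.18 (SE 0.058), YES1 at 0.12 (SE 0.062) and FYN at 0.11 (SE 0.055). All 5 tested kinases of the SYK and TEC group did too, with TEC at 0.080 (SE 0.057), PTK2 at -0.053 (SE 0.10) and BTK, a TEC kinase that acts on PLCG2, at -0.046 (SE 0.047). Of 25 tested adaptors 20 did. NFAM1, an ITAM-bearing membrane protein, was at -0.54 (SE 0.13, edgeR adjusted p = 0.101 with pairs). SLA, an adaptor that dampens kinase signalling, was at -0.51 (SE 0.12, edgeR adjusted p = 0.141), and GAB2, a docking protein for phosphatidylinositol 3-kinase, was at 0.19 (SE 0.052).

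Of 11 tested ITAM subunits and receptors 6 lay within 0.2 of 0. FCER1G, the ITAM chain shared by Fc receptors, was scarce, at 4.05, 5.38 and 5.78 TPM in EV and 3.11, 2.52 and 3.20 TPM in PTX4-OE. Its groups did not overlap, and its log2 difference of -0.78 (SE 0.31) did not pass the edgeR test (adjusted p = 0.475 with pairs). SIRPB1, a receptor that pairs with TYROBP, was at -0.25 (SE 0.059) and TYROBP itself at -0.21 (SE 0.23). CD247, the T cell receptor zeta chain, was named after its values were seen. It was at 0.00, 0.08 and 0.39 TPM in EV and at 0.57, 0.59 and 1.55 TPM in PTX4-OE, and did not pass the edgeR test (adjusted p = 0.0742 with pairs).

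The effectors and the integrin and actin partners were also near 0. Of 22 tested effectors 21 lay within 0.2. PIK3R5, a regulatory subunit of phosphatidylinositol 3-kinase gamma, was at -0.31 (SE 0.10), MAP4K1, a kinase bound by LCP2, at -0.19 (SE 0.065) and PIK3R2 at 0.16 (SE 0.068). Of 23 integrin and actin genes 20 lay within 0.2. ITGB2, the beta chain of the leukocyte integrins, stood at 331, 279 and 261 CPM in EV and 301, 230 and 203 CPM in PTX4-OE. It was lower in each pair, with a log2 difference of -0.26 (SE 0.053), and missed the threshold of the edgeR test (adjusted p = 0.0601 with pairs). ITGAX was at -0.26 (SE 0.082) and CTTN, the cortactin gene, at 0.30 (SE 0.081, edgeR adjusted p = 0.207).

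The level of PRAM1 also differed between replicate numbers, a comparison that the choice of genes did not use. The labels do not say what a number stands for. In a fit with group as a term, 51.6% of all tested genes differed between numbers (edgeR quasi-likelihood test, adjusted p under 0.05), and 1 of the 8 tested members did. PRAM1 was 0.79 higher on the log2 scale in number 3 than in number 1 (SE 0.18, edgeR adjusted p = 0.0016) and 0.78 higher than in number 2 (SE 0.18, adjusted p = 0.0040), with an adjusted p of 0.0017 over the 3 numbers. Higher calls in all tested genes were 25.8% for number 3 over 1, 14.2% for 3 over 2 and 8.4% for 2 over 1, and lower calls 28.8%, 18.6% and 12.9%. It was highest in number 3 in each group, but EV replicate 3 carried the call: without that library the edgeR adjusted p was 0.381. LYN was close to the threshold (edgeR adjusted p = 0.0670), and passed it on log2(TPM + 1) with limma (adjusted p = 0.0468) and without EV replicate 1 (edgeR adjusted p = 0.0215).

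For FYB1, SKAP2, LCP2, LAT2, HCLS1 and SYK the test over the numbers gave edgeR adjusted p of 0.781, 0.835, 0.115, 0.544, 0.170 and 0.436. Their log2 differences between number 3 and number 1 ran from -0.14 (HCLS1) to -0.0015 (FYB1). The low spread of 6 members showed in their coefficient of variation over the 6 libraries, which was 2.77% for LAT2, 3.97% for SYK, 4.33% for SKAP2, 5.00% for HCLS1, 5.33% for LCP2 and 6.38% for LYN. For LAT2, with 17620 to 21810 counts per library, it was lower than in 99.4% of tested genes. For LYN, with 3934 to 5604 counts, it was lower than in 88.3%. The tested genes were not matched to these levels. The coefficient was 19.3% for FYB1 and 58.2% for PRAM1, and 3.73% of tested genes varied more than PRAM1. It was taken over both groups, so it contains the difference between groups on which the list was selected.

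Of the 99 tested genes of the wider pathway 57 were called over the numbers (57.6%), a share near the 51.6% of all tested genes. FYN was 0.69 higher in number 3 than in number 1 on the log2 scale (SE 0.067, edgeR adjusted p = 5.3e-07), and GAB2 was 0.96 higher (SE 0.063). ITGAX, the CD11c integrin chain, was 1.09 higher (SE 0.10). Its list of integrin and actin partners ran mostly the other way, with 14 of 23 tested genes called lower and 4 higher. PTPRC, the CD45 phosphatase that activates Src kinases, was 0.67 higher (SE 0.073). TREM2, a receptor that signals through TYROBP, was lower by 1.16 in number 3 (log2 difference -1.16, SE 0.13). GAB2, PTPRC and TREM2 were all called over the numbers, with edgeR adjusted p of 2.7e-08, 4.1e-06 and 9.4e-06. PTPRC and TREM2 were named after their values were seen. Of the 99 genes 31 were called higher and 29 lower in number 3 than in number 1. Over all tested genes 25.8% and 28.8% were. In the Src kinase list 9 of the 13 tested genes were called higher and 2 lower.

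**Figure D3:**
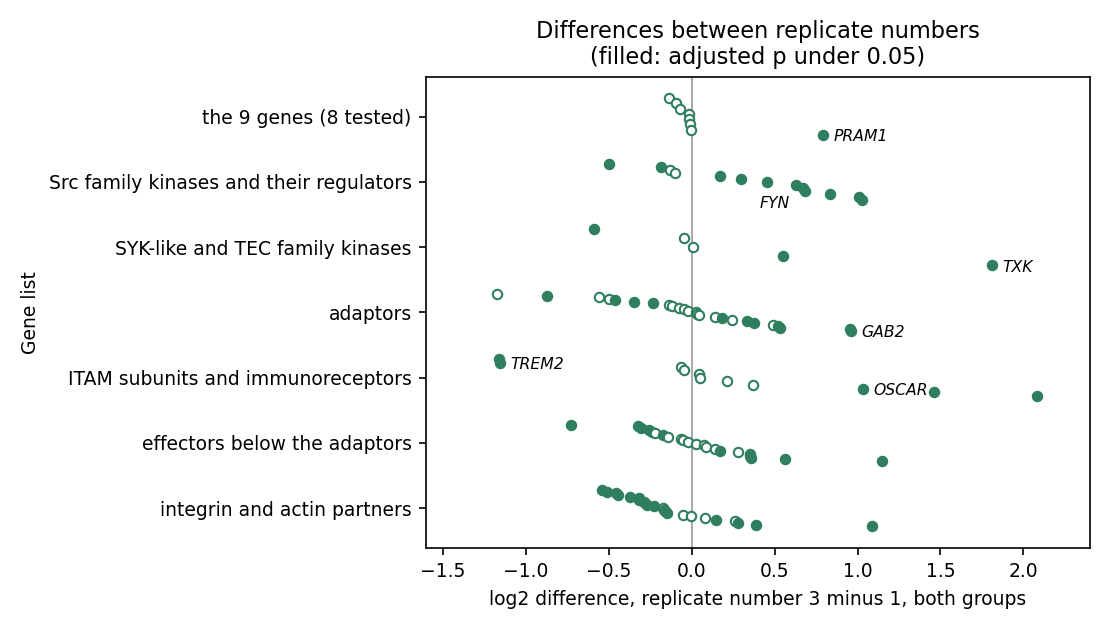
Log2 difference between replicate numbers 3 and 1, from the fit with group as a term, for the 8 tested members and the 6 lists of the wider pathway. Filled points had an edgeR adjusted p under 0.05 for that difference, and PRAM1 at 0.79 is the only filled point among the members.

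The genes most like PRAM1 over the 6 libraries were sought among 14562 genes with a mean of at least 1 CPM, by Pearson's r of log2 CPM. The closest were OTULINL (r = 0.991), ENSG00000293137 (0.976), PDLIM7 (0.974), SEMA4A (0.974) and ENSG00000183154 (0.972). Each had a much smaller range than PRAM1, as in OTULINL, a relative of the deubiquitinase OTULIN, with 192 to 229 CPM in EV and 170 to 187 CPM in PTX4-OE. After the group means were taken off the closest were SURF1 (0.999), RNF2 (0.998), PXDC1 (0.996), ENSG00000250615 (0.996) and CLCN3 (0.993). The 2 sets held different genes. Of the members FYB1 was the most like PRAM1 (r = 0.718), a value that contains the group difference on which the list was selected. After the group means were taken off FYB1 was at -0.213, LYN was highest at 0.496 and LAT2 was lowest at -0.863. These are descriptions over 6 points that share libraries, from a search over many genes.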

How the data were processed

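RNA of 6 THP-1 libraries was measured, 3 with an empty vector and 3 with PTX4. Per the labels' protocols, mRNA was enriched with oligo(dT) beads. The authors deposited 3 tables with 78686 rows: expected counts, not normalized, TPM, a length-scaled unit with a fixed sum per library, and FPKM, scaled by the authors for length and depth. FastQC 0.11.5, STAR and featureCounts, with GRCh38, are named per the submitters' processing notes. The annotation release and the step that left 7.94% of counts fractional are not given in the sources used here.

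Identifiers were named through a gene table (61427 with a symbol), coordinates came from GENCODE release 44, and 36 gene pairs of the pseudoautosomal regions were summed. No 2 libraries agreed within sampling noise (smallest chi-square per degree of freedom 6.54). The design calls the replicates biological and independent, but no source says whether they were separate transductions or cultures, so p-values measure only the spread between these samples.

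The rounded expected counts went into edgeR 4.0.16 (R 4.3.3) (filterByExpr, TMM, quasi-likelihood F test, Benjamini-Hochberg over 17625 genes). Standard errors were the log2 difference over the root of F, and rest on variances moderated across genes. The design had no block. The deviations of same-numbered libraries from their group means correlated at 0.575 (number 1), 0.107 (number 2) and 0.643 (number 3), each above 0.1, and the numbers were taken as pairs, although number 2 was close to that limit. For unlike numbers the correlations ran from -0.588 to 0.0809. Differences between replicate numbers were tested as 2 coefficients with group held. Other settings used DESeq2 1.42.0, limma 3.58.1, other filters and left-out libraries. Scripts were tested on simulated data. Summaries used pandas 2.3.3 under Python 3.11.15, and figures matplotlib 3.10.9.

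The members and lists were chosen with earlier results of these data known. Genes named beyond the members were, in each list, the 3 with the largest absolute difference with pairs at a mean of at least 1 TPM, any called gene, lymphoid or ubiquitous relatives, the nearest tested neighbours of PRAM1 and the 5 genes most like it by each measure. One of the list genes is counted with its list but not reported here by name.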

Additional observations from a re-analysis of the deposited data

How the results depend on the processing

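The replicate block changed the counts of calls: 1 gene was higher and 0 lower without it, against 5 and 42 with it, 5 and 42 with DESeq2 size factors as well, 6 and 32 with DESeq2 and the block, and 14 and 53 with limma-voom and the block. With the block, 106 were higher and 190 lower with no filter on low counts, and 11 and 49 with at least 10 counts in every library (both chosen after seeing the data). Leaving out pair 1, 2 or 3 gave 30, 8 or 41 higher and 58, 15 or 167 lower. Without the block 0 were higher with limma-voom or with at least 10 counts in every library. The latter filter removes PTX4 itself, which had 0, 3 and 4 counts in EV, so that 0 was fixed in advance. Also without the block, 1 was lower with no filter, and 2 were lower with DESeq2 or on log2(TPM + 0.1). Leaving out 1 library gave 1 higher and 0 lower. Of the wider pathway, called at 0 and 0, the counts higher and lower with the block were 0 and 1 with DESeq2, 1 and 1 with limma-voom, 2 and 5 with no filter, 0 and 1 with at least 10 counts, and 0 to 1 and 0 to 3 when a pair was left out (SLA, SIRPB1 and ITGB2 without pair 1, CD247 and ITGAX without pair 3). The cause was not tested. With the block, the median of the members was -0.041 to -0.026 when a pair was left out, and for PRAM1 the log2 difference was -1.27 to -0.80. PRAM1 between replicate numbers lost its call in 1 of 10 settings, without EV replicate 3. LAT2 was at 0.0061 on log2(TPM + 1) and -0.030 in counts. Depth limits FGR, with 3 to 9 counts per library.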
